A study of Homo sapiens with 10 samples.

Results

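The miRNAs numbered miR-6726 to miR-6895 were annotated together from small RNA sequencing, and most of them map to short introns of protein-coding genes. Their 3p arms, the strands from the 3′ side of each hairpin, were taken as every probe of the array named miR, a bare number in that range and 3p. This gave 164 probes of the 2565 human miRNA probes measured. Names that carry a letter after the number or no arm were left out by this rule. RNA of HuH-7, an established cell line from a human hepatocellular carcinoma, was put on 1-colour 3D-Gene miRNA arrays after Cy5 labelling, each sample on its own array. The control group was 5 samples kept for 96 h without drug, and the other group was 5 samples kept for 96 h with 1 µM lenvatinib, an inhibitor of several receptor tyrosine kinases that is used against liver cancer. Both groups were grown in the same serum-containing medium, and no other agent or genetic change separated them. The labels do not say whether the 5 samples of a group were separate cultures, so p-values measure the spread between these samples, which may be technical. The extraction label speaks of serum, whereas all other labels describe cultured cells.

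A mirtron is a miRNA whose hairpin is a whole short intron. Splicing cuts it out, the lariat is opened, and the folded intron goes to Dicer without the cut by Drosha that other miRNA precursors need. Because the 3′ end of the hairpin is then the 3′ end of the intron, the 3p arm holds the pyrimidine-rich stretch and the terminal AG of the 3′ splice site, and the 5p arm is rich in G. In tailed mirtrons only one end of the hairpin is set by splicing. As in other miRNAs, bases 2 to 8 of the mature strand, the seed, are the main part that pairs with target mRNAs.

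Mature sequences of 145 of the 164 3p arms were matched by name in the RefSeq table for GRCh38.p14. The sequences below belong to the 3p arms that passed the test between the groups, described further on, and they are printed 5′ to 3′ in lower case, with the seed in capitals and, where present, the terminal AG in capitals. The first rose with lenvatinib and the other 12 fell. A 13th that fell, miR-6846-3p, is named only.
miR-6805-3p: uUGCUCUGcucccccgcccccAG
miR-6765-3p: uCACCUGGcuggcccgcccAG
miR-6872-3p: cCCAUGCCuccugccgcgguc
miR-6866-3p: gAUCCCUUuaucuguccucuAG
miR-6784-3p: uCUCACCCcaacucugccccAG
miR-6851-3p: uGGCCCUUuguaccccuccAG
miR-6754-3p: uCUUCACCugccucugccugca
miR-6760-3p: aCACUGUCcccuucuccccAG
miR-6762-3p: uGGCUGCUucccuuggucuccAG
miR-6864-3p: gUGAGACUucucucccuucAG
miR-6801-3p: aCCCCUGCcacucacuggcc
miR-6776-3p: cAACCACCacugucucuccccAG
miR-6750-3p: gAACUCACccucugcucccAG

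The terminal AG and the pyrimidine-rich body seen in most of these lines were common among the 3p arms. Of the 145 sequences, 112 ended in AG (77.2%), 98 of them in CAG and 14 in UAG. Of 677 other 3p arms, 74 ended in AG (10.9%), and of 139 5p arms of the same hairpins 9 did (6.47%). The median share of C plus U was 72.7% in the 3p arms, with a range of 45.5% to 95.2%, against 54.5% in other 3p arms and 31.8% in the 5p arms of the same hairpins. G made up a median of 14.3% of the 3p arms and 50% of their 5p partners. The median length was 21 bases, with a range of 17 to 24.

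The hairpins showed the same end more often than the mature strands. Of 140 hairpins that carry these 3p arms, 135 ended in AG (96.4%), against 128 of 1422 other RefSeq hairpins (9.0%). Both splice-site ends, GU at the start and AG at the end, were present in 14 (10%) and in 22 of the others (1.55%). The hairpin of miR-6765, on the minus strand at chr14:105150778-105150864, is one with both ends, and that of miR-6805, on the plus strand at chr19:55388181-55388242, ends in AG but does not start with GU. In the lines below the 5p and 3p arms are in capitals.
MIR6765: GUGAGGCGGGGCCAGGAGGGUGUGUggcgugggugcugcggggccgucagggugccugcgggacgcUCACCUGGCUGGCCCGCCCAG
MIR6805: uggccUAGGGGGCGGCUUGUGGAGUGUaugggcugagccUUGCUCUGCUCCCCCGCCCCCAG
In 103 of the 134 3p arms with a hairpin in the table, the mature strand ran to the very last base of the hairpin. By coordinates, 124 of the 145 lay within the span of a protein-coding gene on the same strand, 18 lay only within a gene whose strand the table does not give, and 3 (miR-6770-3p, miR-6817-3p and miR-6840-3p) lay in no protein-coding gene. Whether a position is intronic or exonic was not determined here.

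Background and overall brightness differed between the groups. The mean blank-spot intensity that the authors subtracted was 33.3 ± 1.51 (SD, n = 5) on control arrays and 68.0 ± 9.88 (SD, n = 5) on lenvatinib arrays, with the highest value, 85.5, on lenvatinib array 5. Spike-in controls were brighter too, at a mean log2 intensity of 13.46 ± 0.09 on control and 14.69 ± 0.17 on lenvatinib arrays (SD, n = 5 each). Array handling and treatment cannot be told apart here, because the shift lies between the groups. Hepatocyte miRNAs, miR-122-5p among them, were detected on all 10 arrays for 5 of 5 markers, and endothelial or stromal ones for 4 of 4. Of 3 erythroid markers 1 was detected on all arrays, and of 4 leukocyte markers none. The leukocyte markers summed to 8.20 to 13.5 on control and 0 to 32.1 on lenvatinib arrays in background-subtracted intensity, against 4888 to 6017 and 13387 to 17260 for the hepatocyte markers.

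The 3p arms were detected often but only just above the blank spots. A probe counts as detected on an array when its raw intensity exceeds that array's blank mean by 2 blank SDs. By this rule 102 of the 164 were detected on all 10 arrays (62.2%), 57 on some and 5 on none (miR-6807-3p, miR-6828-3p, miR-6850-3p, miR-6853-3p and miR-6888-3p). The 5p arms of the same hairpins were alike, with 99 of 163 detected on all arrays (60.7%), whereas 197 of 713 other 3p arms (27.6%) and 756 of the 2401 other miRNA probes (31.5%) were. These shares describe probes with their own base composition and brightness, and no test was made between the lists.

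The median raw intensity of the 3p arms was 1.14 to 1.17 times the blank mean in the control group and 1.15 to 1.18 times with lenvatinib. After subtraction the median per array was 5.64 to 6.29 in the control group and 11.6 to 18.3 with lenvatinib, both in the scanner's units. All 164 together made up 0.723% ± 0.060 of the miRNA signal on control arrays and 0.810% ± 0.078 on lenvatinib arrays (SD, n = 5 each). Correlations between arrays were lower for the 3p arms than over all tested probes. The tested 3p arms also covered a narrower range of normalized log2 levels, with quartiles of 2.55 and 3.58, against 2.41 and 4.71 over all tested probes. Whether this range or closeness to the blank limit lowered the correlation was not tested. Across the tested 3p arms the correlation of normalized log2 intensity between control arrays was 0.82 to 0.89, between lenvatinib arrays 0.74 to 0.87 and between groups 0.68 to 0.88, whereas over all tested probes the lowest correlation between any pair of arrays was 0.91. The spread itself was similar, with a median within-group SD of 0.36 for the 3p arms and 0.34 for all tested probes on the log2 scale.

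On control arrays 1 to 5 the number of 3p arms detected was 139, 139, 140, 151 and 131, and on lenvatinib arrays 1 to 5 it was 132, 148, 137, 135 and 123. The means, 140.0 ± 7.14 and 135.0 ± 9.03 (SD, n = 5 each), differed by 5 probes, less than the SD of either group, and the ranges overlapped. Over all miRNA probes the means were 1359.2 ± 125 and 1321.8 ± 124. Of the 164, 31 were detected on more control arrays, 16 on more lenvatinib arrays and 117 on the same number. None was detected on all 5 arrays of one group and on none of the other.

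**Figure D1:**
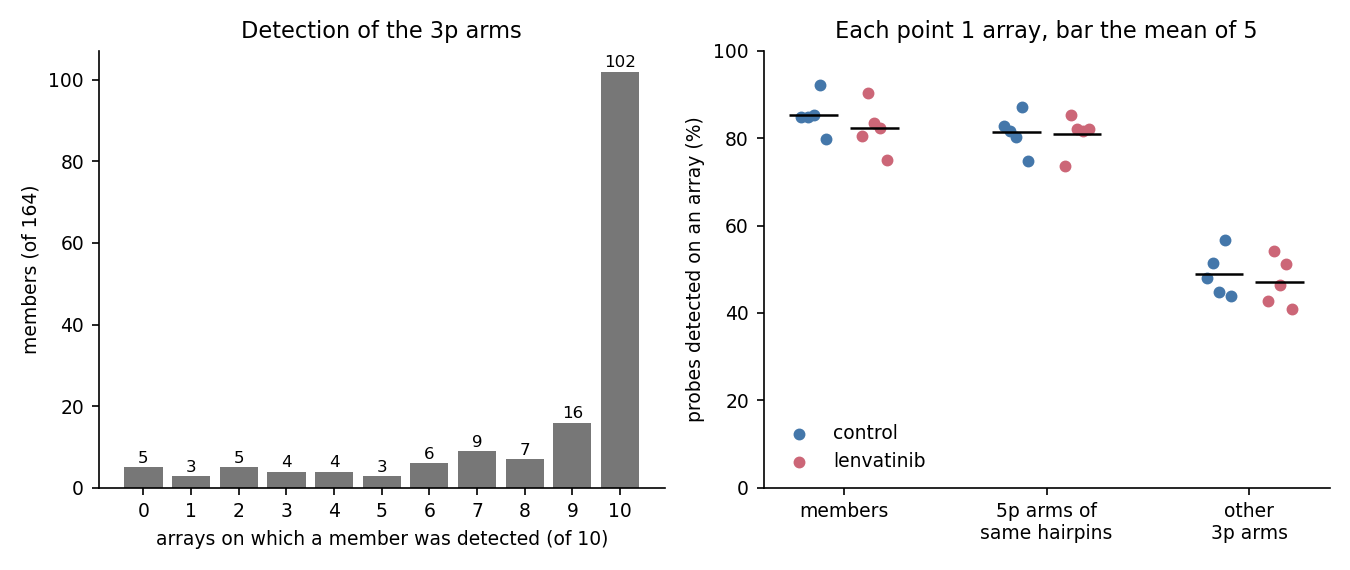
The left plot gives the number of 3p arms (members) detected on 0 to 10 arrays, and the right plot gives the percentage of probes detected on each array, 1 point per array with the group mean as a bar, for the 3p arms, the 5p arms of the same hairpins and other 3p arms. Of the 164 members 102 were detected on all 10 arrays, and per array 79.9% to 92.1% were detected on control and 75% to 90.2% on lenvatinib arrays.

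For the comparison of lenvatinib with control, which asks which miRNAs the drug shifts in these cells, background-subtracted intensities were log2-transformed and quantile-normalized, and an undetected value was set to the lowest detected value of its array. Detection on 5 or more of the 10 arrays was required for the limma fit, which held 1346 probes and 143 of the 3p arms. Against control, 1 of the 143 rose with lenvatinib (0.699%) and 13 fell (9.09%) at a Benjamini-Hochberg adjusted p under 0.05 over all 1346 probes. Over all tested probes 12.1% rose and 9.36% fell. The share of 3p arms that fell was close to that of the array as a whole, and the share that rose was below it, with no test of either difference. The remaining 129 did not pass. By the unadjusted p, 5 were higher and 27 lower at the same threshold, where 17.2% and 16.8% of all probes were. The 5 arrays of one group lay wholly above the other group in 1 member and wholly below in 10, and over all tested probes this held for 11.1% and 8.84%.

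The log2 change of the 143 had a median of −0.18, with quartiles of −0.36 and 0.01 and a range of −1.47 to 0.93. It was negative in 107 of them (74.8%), and over all tested probes it was negative in 52.8%, with a median of −0.03. The 348 other 3p arms tested had a median of −0.12, with 27 that rose and 41 that fell. Only miR-6765-3p differed by more than 2-fold among the 143. Because these probes are dim and their number is limited by detection, those that passed the detection rule are not all 164.

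**Figure D2:**
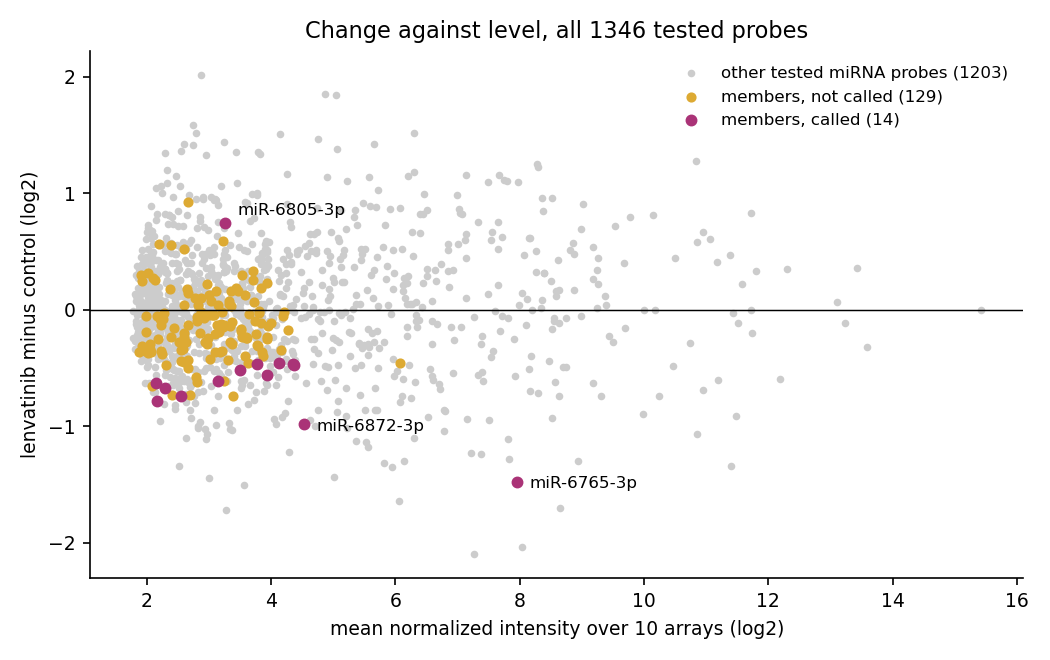
Log2 change with lenvatinib (vertical axis) against mean normalized log2 intensity (horizontal axis) for the tested probes, with the 3p arms set apart from the others. Of 143 3p arms 13 fell and 1 rose, and miR-6765-3p stands alone at high intensity with a change of −1.47.

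A fall here is relative to the bulk of the array. Before scaling, the median tested probe was higher on lenvatinib arrays by 1.30 on the log2 scale, and the median 3p arm by 1.13. Without any scaling 140 of the 143 were higher with lenvatinib and none passed as lower, where 1287 of all 1346 probes passed as higher. So each 3p arm listed as fallen differed from most probes in gaining less intensity, and the unscaled difference was positive in all of the 13 but miR-6765-3p.

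miR-6765-3p, from a hairpin within JAG2 (chr14:105150778-105150798, minus strand), the gene of a Notch ligand, changed most. Its background-subtracted intensity was 243, 247, 276, 275 and 256 on control arrays 1 to 5 and 294, 299, 317, 286 and 120.3 on lenvatinib arrays 1 to 5. Before scaling, lenvatinib arrays 1 to 4 thus lay slightly above all control arrays and array 5 far below them. After normalization all 5 lenvatinib arrays, at 7.54, 7.53, 7.57, 7.31 and 6.16, lay below the control arrays, at 8.54 to 8.80. The means were 8.69 ± 0.10 and 7.22 ± 0.60 (SD, n = 5 each), a log2 change of −1.47 ± 0.25 (SE, limma adjusted p = 0.00138), or 2.78-fold lower. Without lenvatinib array 5 or any other single array the change was −1.57 to −1.21 and passed each time. Without scaling it was −0.06, and did not pass (limma adjusted p = 0.827).

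miR-6872-3p, within SEMA3B (chr3:50273275-50273295, plus strand), which encodes a secreted semaphorin, fell next most. Its intensities were 19.6, 18.1, 22.6, 21.7 and 18.7 on control arrays and 22.9, 31.9, 28.5, 29.6 and 19.8 on lenvatinib arrays. Unscaled, the groups overlapped. Normalized, they did not, at 4.89 to 5.19 in controls and 3.39 to 4.43 with lenvatinib, and the log2 change was −0.98 ± 0.18 (SE, limma adjusted p = 0.00250).

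miR-6866-3p lies at chr17:40161980-40162001 within the span of CASC3, whose protein is a part of the exon junction complex. It had 7.39, 6.30, 6.10, 7.21 and 8.15 on control arrays and 11.0, 9.43, 9.90, 11.9 and 14.8 on lenvatinib arrays. All lenvatinib values were above all control values before scaling and below them after it, at 2.64 to 3.00 against 3.24 to 3.77, with a log2 change of −0.61 ± 0.15 (SE, limma adjusted p = 0.0117). miR-6851-3p lies within NOL6 (chr9:33467869-33467889, minus strand), a gene for a nucleolar protein of ribosome production. Its intensities were 4.46, 3.93, 3.26, 4.92 and 3.60 on control arrays and 5.30, 5.98, 8.57 and 6.68 on lenvatinib arrays 2 to 5, with no detection on array 1. Its normalized level was lower on all lenvatinib arrays, by −0.67 ± 0.17 (SE, limma adjusted p = 0.0136).

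miR-6784-3p lies within PLCD3 (chr17:45114367-45114388, minus strand), a phospholipase C gene of phosphoinositide signalling. It had 4.60, 4.37, 5.98, 4.73 and 5.11 on control arrays and 7.15, 8.04, 8.69 and 7.64 on lenvatinib arrays 1, 2, 4 and 5, and was not detected on array 3. The normalized groups did not overlap, and the change was −0.74 ± 0.18 (SE, limma adjusted p = 0.0132). miR-6754-3p, within NADSYN1 (chr11:71473546-71473567, plus strand), which encodes an enzyme of NAD synthesis, was detected on every array. Its normalized levels were 4.41 to 4.75 on control and 3.98 to 4.31 on lenvatinib arrays, which did not overlap, with a change of −0.47 ± 0.12 (SE, limma adjusted p = 0.0174).

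miR-6760-3p, within the homeobox gene CUX2 (chr12:111304189-111304209, plus strand), was detected on all control arrays, at 2.90 to 5.31, and on lenvatinib arrays 2, 3 and 4, at 5.92 to 6.69. With the undetected arrays at their floor the change was −0.63 ± 0.17 (SE, limma adjusted p = 0.0206) and the groups did not overlap. These 7 falls (miR-6754-3p, miR-6760-3p, miR-6765-3p, miR-6784-3p, miR-6851-3p, miR-6866-3p and miR-6872-3p) passed with each array left out in turn. Over all alternatives miR-6760-3p kept its call in only 16 of 23 and miR-6851-3p in 19 of 23. miR-6784-3p kept it in 21 of 23 and miR-6754-3p in 23 of 25. miR-6765-3p, miR-6866-3p and miR-6872-3p each kept theirs in 24 of 25. These totals include the 10 fits that leave out an array. A total of 23 marks a 3p arm not detected on all 10 arrays, which the alternatives that require this left out. 

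The other 6 falls were between −0.78 and −0.46 on the log2 scale and lost the call when some single arrays were left out. miR-6762-3p, within the two-pore channel gene TPCN1 (chr12:113291586-113291608, plus strand), did not overlap between groups, at 4.14 to 4.51 on control and 3.76 to 4.00 on lenvatinib arrays, with a change of −0.46 ± 0.13 (SE, limma adjusted p = 0.0268). It was lost without control array 1, 3 or 5 or lenvatinib array 2 or 3, with a limma adjusted p of at most 0.0678. miR-6864-3p, within CAMTA2 (chr17:4969702-4969722, minus strand), a gene for a calmodulin-binding transcription activator, was detected on all 5 control arrays and on lenvatinib arrays 2 and 4, so 3 of its 5 lenvatinib values are the floor and the size of its change rests on that floor. The fitted change of −0.78 ± 0.22 (SE, limma adjusted p = 0.0288) was lost without control array 3, 4 or 5 or lenvatinib array 1, 3 or 4, at up to 0.0661, and passed in 8 of 23 alternatives in all.

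miR-6801-3p lies within PPP2R1A (chr19:52222074-52222093, plus strand), which encodes the scaffold subunit of the phosphatase PP2A. Its groups overlapped only between control array 2, at 4.24, and lenvatinib array 2, at 4.26, and the change was −0.47 ± 0.14 (SE, limma adjusted p = 0.0342). It was lost without control array 1, 3, 4 or 5 or lenvatinib array 1, 3 or 4, at up to 0.0835. miR-6776-3p lies within CLUH (chr17:2692861-2692883, minus strand), a gene for a protein that binds mRNAs of mitochondrial proteins. Lenvatinib arrays 1 to 4 lay at 3.50 to 3.57 and array 5 at 4.18, inside the control range of 3.90 to 4.49. Its change of −0.56 ± 0.17 (SE, limma adjusted p = 0.0347) held in the fits without control array 2 or lenvatinib array 5 and was lost in the other 8, at up to 0.0831.

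miR-6846-3p had 7.66, 10.6, 10.5, 11.7 and 10.4 on control arrays and 19.2, 14.4, 21.1, 16.5 and 21.0 on lenvatinib arrays. Its normalized change was −0.47 ± 0.14 (SE, limma adjusted p = 0.0364), and control array 1 alone, at 3.72, lay within the lenvatinib range of 3.32 to 3.77. It was lost without control array 2, 3, 4 or 5 or lenvatinib array 2 or 4, at up to 0.0797. miR-6750-3p, within the autophagy gene ATG2A (chr11:64898363-64898383, minus strand), is the 13th and is named here after its values were seen. Its change was −0.52 ± 0.16 (SE, limma adjusted p = 0.0419), with overlapping groups, and it was lost without control array 2, 3 or 4 or lenvatinib array 1, 2, 4 or 5, at up to 0.0937. The count of 13 falls became 7 without control array 3 and 8 without control array 4. Over all tested probes 6.79% and 8.84% fell in these 2 fits, against 9.36% with all arrays.

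miR-6805-3p was the one 3p arm that rose. It lies within RPL28 (chr19:55388220-55388242, plus strand), which encodes a protein of the large ribosomal subunit, and its sequence is C-rich up to the terminal AG. Its intensities were 4.76, 6.35, 3.37, 4.89 and 4.68 on control arrays and 16.8, 20.0, 19.2, 18.2 and 23.2 on lenvatinib arrays. Normalized, the control arrays had 2.98, 3.30, 2.44, 2.76 and 2.98 and the lenvatinib arrays 3.57, 3.82, 3.66, 3.53 and 3.61. No value overlapped, before or after scaling. The means were 2.89 ± 0.32 and 3.64 ± 0.11 (SD, n = 5 each), a log2 change of 0.74 ± 0.16 (SE, limma adjusted p = 0.00687), or 1.67-fold higher. It passed with each array left out, at 0.63 to 0.86. Of 25 other settings it passed in 24, and not under scaling to the 75th percentile (limma adjusted p = 0.0581).

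**Figure D3:**
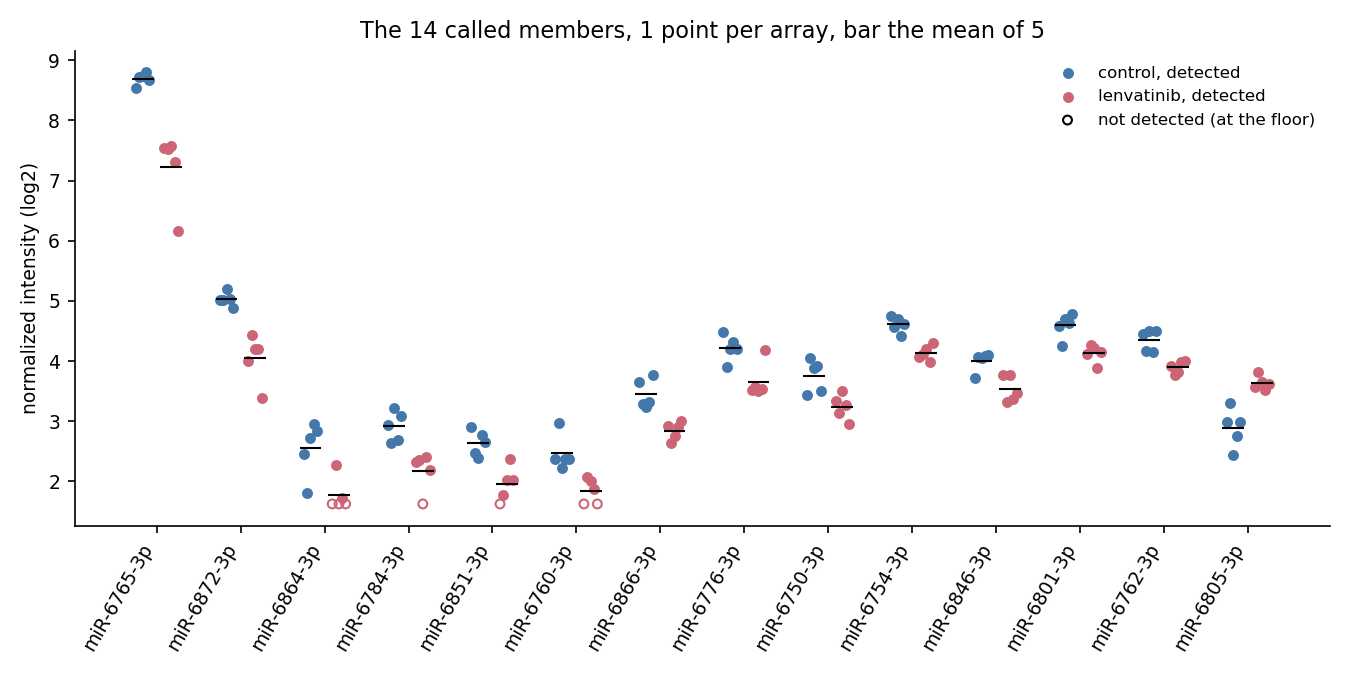
Normalized log2 intensity (vertical axis) of the 14 3p arms that passed the test, with 1 point per array and the group mean as a bar, control beside lenvatinib. miR-6765-3p on lenvatinib array 5 lies at 6.16, below the other lenvatinib arrays at 7.31 to 7.57, and miR-6805-3p is the one with all lenvatinib points above all control points.

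Just outside the threshold were miR-6840-3p and miR-6733-3p. miR-6840-3p had intensities of 40.9 to 51.2 on control and 78.0 to 129.7 on lenvatinib arrays. Its normalized levels overlapped only through lenvatinib array 5, at 6.27, and its change was −0.45 ± 0.16 (SE, limma adjusted p = 0.0611). Without lenvatinib array 5 it was −0.56 and passed (limma adjusted p = 0.00797). miR-6733-3p, within EBNA1BP2, a gene of ribosome production, had a change of 0.56 ± 0.20 (SE, limma adjusted p = 0.0663). It passed in 1 of the 10 fits with an array left out, that without lenvatinib array 4.

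Among the brightest 3p arms, miR-6804-3p, miR-6743-3p and miR-6875-3p did not pass. Their log2 changes were −0.17 ± 0.14, −0.02 ± 0.12 and −0.05 ± 0.14 (SE), with limma adjusted p of 0.458, 0.945 and 0.843. The largest positive change, 0.93 for miR-6836-3p, also did not pass (limma adjusted p = 0.0769). That probe was detected on 3 control arrays, at 2.39 to 5.64, and on all 5 lenvatinib arrays, at 8.73 to 21.5.

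Falls occurred in every sequence class of the 3p arms, with more of them at or below the median share of C plus U than above it. No difference between classes was tested. Of the 112 that ended in AG, 66 were detected on all arrays (58.9%), and of 97 tested 1 rose and 9 fell, with a median log2 change of −0.20. Of the 33 with another end, 25 were detected on all arrays (75.8%), and of 31 tested 3 fell, with a median of −0.15. Split at the median share of C plus U, 2 of 60 above it and 10 of 68 at or below it fell. Across the 128 tested 3p arms with a sequence, which share the same arrays and differ in base composition, the share of C plus U correlated with the log2 change at a Pearson r of 0.01 and a Spearman rho of 0.05. For GC content and the normalized level these were 0.22 and 0.17.

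Few of the 3p arms share a seed. The 145 sequences held 140 different seeds, and 5 pairs had the same one, printed below so that the seed in capitals can be compared within a pair.
miR-6784-3p: uCUCACCCcaacucugccccAG
miR-6862-3p: cCUCACCCagcucucuggcccucu
miR-6801-3p: aCCCCUGCcacucacuggcc
miR-6810-3p: uCCCCUGCucccuuguuccccAG
miR-6764-3p: uCUCUGGUcuuuccuugacAG
miR-6824-3p: uCUCUGGUcuugccaccccAG
miR-6791-3p: uGCCUCCUuggucuccggcAG
miR-6829-3p: uGCCUCCUccguggccucAG
miR-6819-3p: aAGCCUCUguccccaccccAG
miR-6877-3p: cAGCCUCUgcccuuggccucc
In no pair did both members pass. miR-6784-3p fell by 0.74 on the log2 scale, and its seed partner miR-6862-3p had −0.21 ± 0.15 (SE, limma adjusted p = 0.365). miR-6801-3p fell by 0.47, and its partner miR-6810-3p had −0.13 ± 0.29 (SE, limma adjusted p = 0.813). The difference within a pair was not tested. The other seed sharers had changes of −0.38 to 0.19 and did not pass, and miR-6819-3p was detected on 3 arrays and was not tested.

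The 2 arms of a hairpin come from one precursor, so each 3p arm was set beside its 5p partner. Of 163 hairpins with a probe for each arm, both arms were detected on all arrays in 63, only the 3p arm in 38, only the 5p arm in 36 and neither in 26. Of 138 tested 5p arms 25 rose and 5 fell, with a median log2 change of 0.12, where 12.1% of all tested probes rose and 9.36% fell. Under scaling to the 75th percentile the median turned to −0.06, with 19 that rose and 9 that fell, and without lenvatinib array 5 it was 0.01, with 26 that rose and 10 that fell of 133. Both arms were tested in 121 hairpins and both passed in 4 (miR-6760, miR-6762, miR-6765 and miR-6784). In each of these the 3p arm fell and the 5p arm rose.

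The difference between the arms, 3p minus 5p on the same array, was then compared between groups with limma over the 336 hairpins of the array that had both arms tested. This comparison was added after the values had been seen. The difference fell with lenvatinib in 17 of the 121 hairpins (14.0%) and rose in 1, where over all 336 it fell in 11.0% and rose in 2.98%. Its median change was −0.33 in the 121 and −0.13 in the 215 others, of which 20 fell and 9 rose. The median in these hairpins was −0.19 without lenvatinib array 5, and −0.050 with normexp and −0.055 with no background correction. The last 2 are not on the same scale, because an offset of 50 or the blank level stays in each value there. The 17 ranged from −2.35 to −0.77. In 15 of them the groups did not overlap, which having passed the test makes likely, so it adds no separate support. Non-overlap was not counted over all 336. The 5p arm had itself risen in 13 of the 17 and the 3p arm had itself fallen in 5, including the 4 above. A scaling that shifts a whole array by one factor cancels in this difference.

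In miR-6765 the 3p minus 5p difference was 2.90, 3.05, 3.29, 3.00 and 3.03 on control arrays and 1.24, 1.23, 1.14, 0.89 and −0.98 on lenvatinib arrays. All lenvatinib arrays were lower, array 5 by far the most, and the difference changed by −2.35 ± 0.37 (SE, limma adjusted p = 0.00101). Its 5p arm rose by 0.88 ± 0.17 (SE, limma adjusted p = 0.00355). In miR-6784 the difference was −3.17 to −2.30 on control and −5.47 to −4.07 on lenvatinib arrays, a change of −1.89 ± 0.29 (SE, limma adjusted p = 0.000996), with a 5p arm that rose by 1.15 ± 0.22 (SE).

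In miR-6816, whose hairpin lies within the span of the tRNA methyltransferase gene TRMT2A, only the 5p arm passed. The 3p arm had 0.10 (limma adjusted p = 0.827), and the 5p arm rose by 1.46 ± 0.20 (SE). The difference went from −1.55 to −1.05 on control to −3.11 to −2.28 on lenvatinib arrays, a change of −1.36 ± 0.22 (SE, limma adjusted p = 0.00132). The one hairpin with the opposite change was miR-6759, within CDK4, the gene of a cell cycle kinase. Its difference was 0.10, 0.39, −0.13, 0.66 and 0.46 on control arrays and 1.04, 1.42, 1.38, 1.37 and 1.79 on lenvatinib arrays, without overlap, a change of 1.10 ± 0.23 (SE, limma adjusted p = 0.00638). There the 5p arm fell by 1.11 ± 0.16 (SE) and the 3p arm had −0.01. Levels of 2 probes depend on each probe's own brightness, so only the change of the difference is read here, not its sign on one array.

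In 8 further hairpins only the 5p arm had passed on its own. They include those within IRF8 (miR-6774), a transcription factor gene of myeloid cells, MED25 (miR-6800), which encodes a Mediator subunit, DVL1 (miR-6808), which encodes a transducer of Wnt signals, COPG1 (miR-6826), which encodes a subunit of the COPI vesicle coat, and PPP6R1 (miR-6802), which encodes a regulatory subunit of a phosphatase. In miR-6774 the difference was −1.46 to 0.29 on control and −2.67 to −1.65 on lenvatinib arrays, a change of −1.77 ± 0.36 (SE, limma adjusted p = 0.00576), where the 3p arm had −0.44 and the 5p arm rose by 1.34 ± 0.16 (SE). In miR-6800 it was 0.30 to 2.11 in controls and −1.16 to 0.23 with lenvatinib, a change of −1.51 ± 0.37 (SE, limma adjusted p = 0.0126), with −0.18 for the 3p arm. The groups were apart in both, but within-group values spread widely, above all among the control arrays.

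In miR-6789 the change was −1.43 ± 0.22 and in miR-6768 −1.37 ± 0.25 (SE), and their 3p arms had −0.23 and −0.19. The 5p arm of miR-6789 was detected on 8 of the 10 arrays and the 3p arm of miR-6768 on 6, so these differences, like those of miR-6784 and miR-6760, hold values set to the floor. In miR-6826, miR-6802, miR-6808 and miR-6845 it was −1.22, −1.12, −1.01 and −0.77, and miR-6808 was the one of these 4 whose groups overlapped. In 3 hairpins neither arm passed alone while the difference did. These were miR-6894, within the histone demethylase gene KDM5C, with −0.86 ± 0.22 (SE, limma adjusted p = 0.0177), miR-6787, within the lactate transporter gene SLC16A3, with −0.88 ± 0.28 (SE, limma adjusted p = 0.0477), and miR-6830, within the collagen hydroxylase gene P4HA2, with −0.85 ± 0.26 (SE, limma adjusted p = 0.0422). miR-6750, whose 3p arm had fallen, had a difference of −1.20 ± 0.29 (SE, limma adjusted p = 0.0116), but its 5p arm was detected on 5 of the 10 arrays.

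The remaining fallen 3p arms with a tested partner did not pass this test of the difference. The partners of miR-6872-3p, miR-6851-3p, miR-6754-3p, miR-6801-3p, miR-6776-3p, miR-6846-3p and miR-6864-3p had log2 changes of −0.60 to 0.28, none of which passed, and that of miR-6776 was the lowest. The 5p partner of miR-6805-3p, the arm that rose, had 0.57 ± 0.20 (SE, limma adjusted p = 0.0675), in the same direction.

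**Figure D4:**
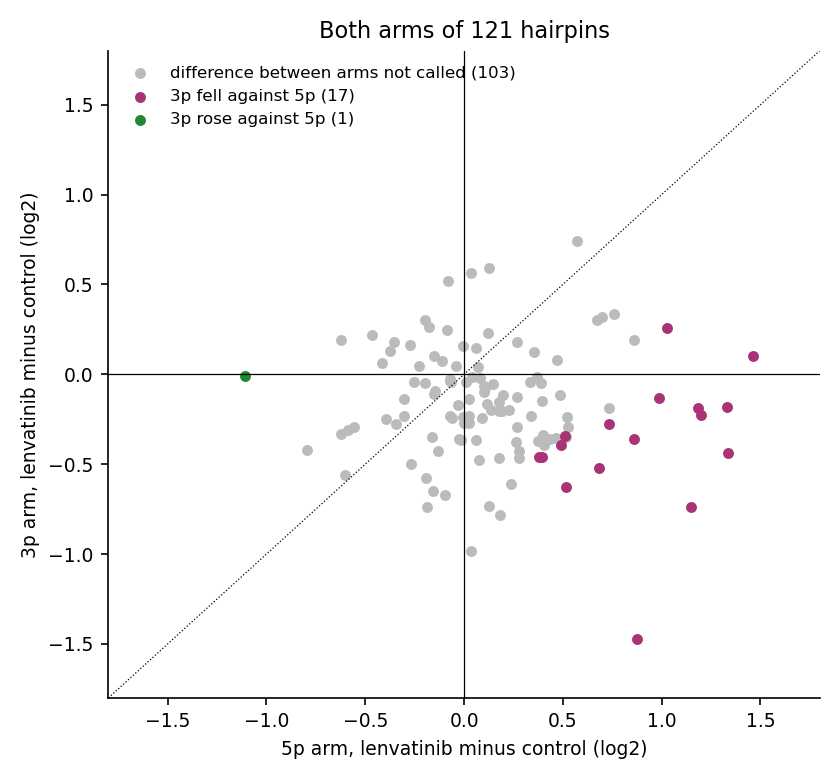
Log2 change with lenvatinib of the 3p arm (vertical axis) against that of the 5p arm (horizontal axis) for the 121 hairpins with both arms tested, coloured by the test of the difference between arms, with equal change along the dotted line. The 17 hairpins whose 3p arm fell against the 5p arm all have a positive 5p change, and miR-6759 alone lies on the other side of the line among those that passed.

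How many 3p arms pass depends on how the arrays are scaled to each other. Scaling to each array's 75th percentile gave 29 lower and 0 higher, with a median change of −0.38, and the split over all probes turned from 163 higher and 126 lower to 111 and 238, with a median of −0.21 over all. Scaling to the spike-in controls gave 5 lower and 1 higher, with a median of −0.10, where 6.17% of all probes fell and 14.6% rose and their median was 0.07. The median of the 3p arms was below that of all tested probes under both. Each of these scalings shifts all probes of an array alike, so neither can change that gap, and they add no separate support. Under quantile normalization the medians were −0.18 for the 3p arms and −0.03 for all tested probes.

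**Figure D5:**
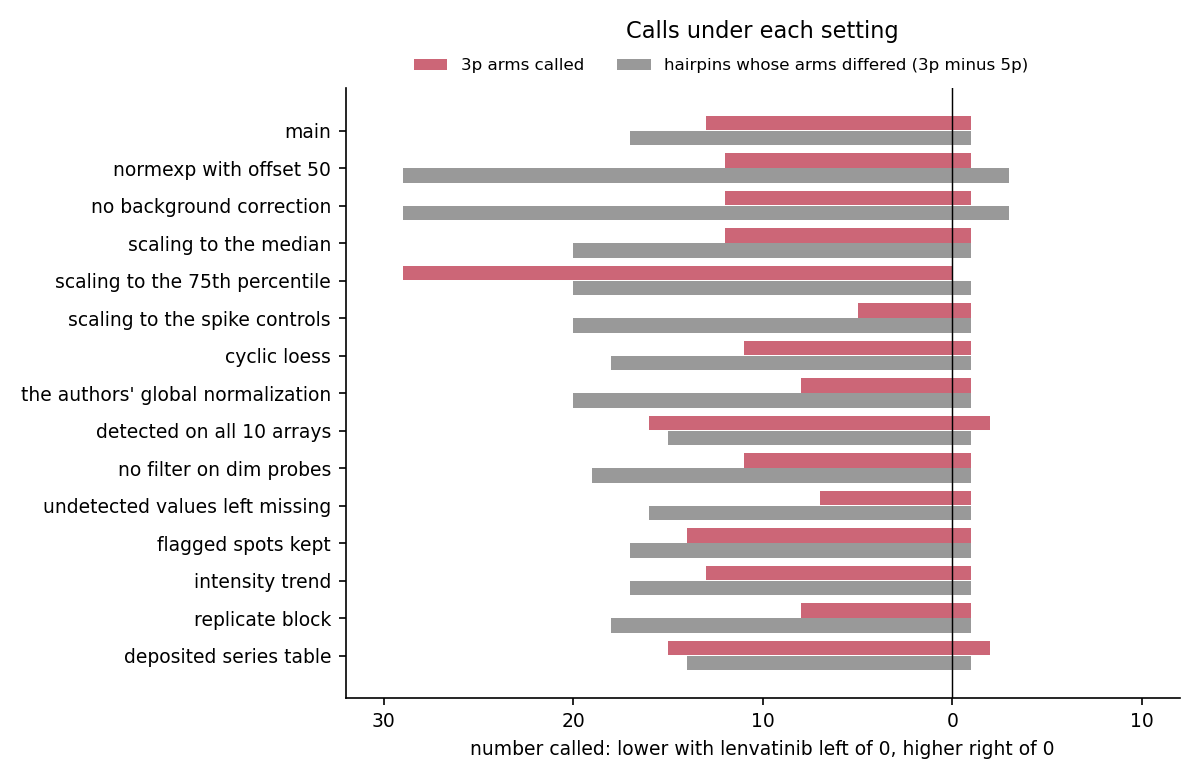
Number of 3p arms, and of hairpins by their 3p minus 5p difference, that were lower (left of 0) or higher (right of 0) with lenvatinib under the processing described above (main) and each alternative other than no scaling and the fits that leave out 1 array. The count of 3p arms lower runs from 5 with spike-in scaling to 29 with 75th-percentile scaling. That of hairpins runs from 14 of 57 tested with the deposited series table to 29 of 121 with normexp or no background correction. The numbers tested differ, so the lowest count of hairpins is not the lowest share. Over all tested hairpins 22.1% fell with the series table, 20.2% with normexp and 20.8% with no background correction.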

How the data were processed

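Total RNA of the 10 samples was measured on 1-colour arrays. Per the file headers and values, the authors deposited for each array the raw intensity of each probe, a background-subtracted intensity and a normalized intensity in linear scanner units. Tested on the files, the subtracted value is the raw intensity minus the mean of the blank spots after 5% is trimmed at each end. It is left empty unless the raw intensity exceeds that mean by 2 SD, which matched all 2565 miRNA probes on all arrays. Their global normalization sets each array's median to 25, and a deposited table of the whole series fills 803 probes.

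From the deposited background-subtracted intensities, log2 values were quantile-normalized in R 4.3.3 with undetected values at the array's lowest detected value. limma 3.58.1 (lmFit, eBayes, two-sided) was fitted to probes detected on at least 5 of 10 arrays, with no covariate and Benjamini-Hochberg adjustment over all tested probes, tested on simulated data first. The number of arrays limits the precision. Samples were grouped by their titles, and the replicate numbers were not taken to pair the samples, because 1 of the 5 same-numbered pairs was not correlated. Alternatives covered background correction (normexp with offset 50), scaling, filters, undetected values, the deposited series table, an intensity trend, a replicate block and leaving out each array.

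Named 3p arms were up to 12 past the threshold in each direction by smallest adjusted p, the 8 brightest by mean background-subtracted intensity among those detected on all arrays, any detected on all arrays of one group and none of the other, the 2 with the smallest adjusted p above the threshold, and those that share a seed. miR-6836-3p and miR-6750-3p were named after their values were seen, as were the hairpins named for the difference between their arms. The members and lists were chosen with earlier results of these data known. Sequences, coordinates and gene spans are from RefSeq tables of GRCh38.p14.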

Additional observations from a re-analysis of the deposited data

Results flagged for a closer look

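In 11 of 58 groups of 5 arrays examined (19.0%), 1 array lay far from the other 4 by Dixon's test. For independent groups of normally distributed values chance alone would give about 5%. These groups share the same arrays, many are of 3p arms named for their test result or brightness, and some hold values set to the floor. The 19.0% therefore cannot be read as an excess over 5%. On lenvatinib array 5, miR-6765-3p was low at a normalized log2 intensity of 6.16, where the other lenvatinib arrays had 7.31 to 7.57. On the same array miR-6862-3p was low at 3.25 against 3.72 to 3.84, and miR-6776-3p was high at 4.18 against 3.50 to 3.57. All 164 3p arms together made up 0.945% of the miRNA signal there, against 0.748% to 0.798% on the other lenvatinib arrays. That array also had the highest blank mean.

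On lenvatinib array 4, miR-6804-3p was low at 3.95 against 4.21 to 4.29, and miR-6875-3p was low at 3.88 against 4.20 to 4.28. miR-6784-3p was at the floor on lenvatinib array 3, at 1.63, where it was not detected, against 2.19 to 2.40. miR-6864-3p was high on lenvatinib array 2, at 2.27 against 1.63 to 1.72. Among control arrays, miR-6760-3p was high on array 2, at 2.97 against 2.23 to 2.38. miR-6846-3p was low on control array 1, at 3.72 against 4.06 to 4.10, and miR-6877-3p was low on control array 5, at 2.96 against 3.41 to 3.49. Neighbouring probes or spot positions were not examined.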

How the results depend on the processing

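Of 637 values of named 3p arms under alternatives, 507 kept their direction and their side of the threshold, 81 no longer passed, 14 newly passed and 35 changed direction. Of these 35, 21 arose without scaling, where the lift common to nearly all probes on lenvatinib arrays remains. There 140 3p arms were higher and 0 lower, with a median log2 change of 1.13. The changes were then 0.38 for miR-6872-3p, 0.69 for miR-6866-3p, 0.54 for miR-6784-3p, 0.67 for miR-6851-3p, 0.86 for miR-6754-3p, 0.82 for miR-6760-3p, 0.86 for miR-6762-3p, 0.62 for miR-6864-3p, 0.86 for miR-6801-3p, 0.74 for miR-6776-3p, 0.86 for miR-6846-3p and 0.77 for miR-6750-3p. They were 1.04 for miR-6840-3p, 1.16 for miR-6804-3p, 1.29 for miR-6743-3p, 1.26 for miR-6875-3p, 1.18 for miR-6810-3p, 1.11 for miR-6862-3p, 1.03 for miR-6764-3p, 1.18 for miR-6791-3p and 1.05 for miR-6829-3p.

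Scaling to the 75th percentile gave 0 higher, 29 lower (the same 13 among them) and a median of −0.38, with −0.0080 for miR-6877-3p and −0.019 for miR-6824-3p. Spike-in scaling gave 5 lower, all among the 13, with 0.059 for miR-6743-3p and 0.029 for miR-6875-3p. The authors' global normalization gave 8 lower and undetected values left missing 7, all among the 13, where 7.13% and 6.85% of all tested probes fell. Detection on all 10 arrays gave 2 higher and 16 lower of 102 tested, and 9 of the 16 were among the 13. Over all probes tested there 18.8% rose and 15.6% fell. The deposited series table gave 2 higher and 15 lower of 93 tested, and 9 of the 15 were among the 13. There 19.8% of all tested probes rose and 16.8% fell. normexp and no background correction gave medians of −0.024 and −0.026 and, each, 29 hairpins whose 3p arm fell against the 5p arm and 3 whose 3p arm rose. Over all 336 hairpins 20.2% and 20.8% fell under these settings and 10.1% rose, so the increase ran across the array. With 1 raw limit for all arrays, 92.1, the limit of lenvatinib array 5, only 1 of the 3p arms was detected on each control array. Lenvatinib arrays 1 to 5 had 2, 3, 9, 3 and 123. The mean per array was 27 higher with lenvatinib, which rests on array 5, the array that set the limit. Over all miRNA probes the means were 161.8 on control and 565.4 on lenvatinib arrays. Detection thus cannot be set apart from background level. The cause of the other shifts was not tested.

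Leaving out 1 array gave 7 to 16 lower, 1 to 2 higher, a median of −0.21 to −0.14, 13 to 18 hairpins whose 3p arm fell against the 5p arm, 1 to 2 that rose, and −8.25 to −2 in detected 3p arms per array. Over all tested probes 6.79% to 11.8% fell and 9.94% to 13.9% rose in these fits. The difference between the arms fell in 8.52% to 13.2% of all tested hairpins and rose in 2.21% to 3.72%. Signs of changes near 0 turned in some of these fits, which ranged from −0.34 to 0.052 for miR-6810-3p, −0.27 to 0.049 for miR-6791-3p, −0.077 to 0.014 for miR-6743-3p and −0.11 to 0.022 for miR-6875-3p. A replicate block gave 8 lower of 143 tested, 6 of them among the 13, where 8.54% of all tested probes fell. The correlation of same-numbered arrays was 0.11, 0.12, 0.14, 0.14 and 0.0008, and 3 of 5 arrays correlated best with their own number, so the numbers were not taken to pair the samples.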
